A study of Arabidopsis thaliana with 12 samples.

Results

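The effect of abi3-6 on the seed transcriptome was followed at 16 days after flowering (DAF), late in seed maturation. The comparison took, by genotype and age, the 3 arrays of homozygous abi3-6 seeds at 16 DAF and the 3 arrays of wild-type Col-0 seeds at 16 DAF, 6 of the 12 arrays of the series, and all 22746 of 22810 probe sets that were not controls. Each array came from its own batch of plants grown under long days, and seeds were dissected whole from siliques, so embryo, endosperm and seed coat were measured together. The same genotypes were also sampled at 12 DAF, with 3 arrays each. Values are log2 expression, a scale inferred from their range, and the number of arrays limits their precision.

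ABI3 is a B3-domain transcription factor that acts with abscisic acid in the seed. In maturing Arabidopsis embryos it is needed for storage reserves, for desiccation tolerance, and for the loss of chlorophyll, and severe abi3 alleles give green seeds that do not survive drying. Seeds that mature normally shut down photosynthesis and growth while they fill with storage proteins, oil and protective proteins. ABI3 itself had no probe set paired with it alone in the annotation used, so the mutated gene was not analysed here.

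Arrays of a genotype were close to each other, with Pearson correlations of 0.99 to 0.996 within abi3-6 and 0.991 to 0.993 within wild type over all probe sets. Between the genotypes the mean correlation was 0.864 at 16 DAF, against 0.939 at 12 DAF. Tests were limited to probe sets with 3 or more arrays at or above 3.16 log2 units, called the dim limit below, which kept 14873 probe sets and left out 7873. Of the kept ones, 150 passed this filter through the abi3-6 16 DAF arrays alone and 89 through the wild-type 16 DAF arrays alone. Array medians were 4.43, 4.43 and 4.46 in abi3-6, against 4.05, 4.1 and 4.09 in wild type. The actin control probe sets, a sign of RNA length, gave 3' minus 5' signals of 0.36, 0.40 and 0.34 log2 units in abi3-6, against -0.23, -0.20 and -0.21 in wild type. For GAPDH they were 0.15, 0.08 and 0.32 in abi3-6, against 0.16, 0.17 and -0.55 in wild type, which overlapped, and for ubiquitin 0.28, 0.14 and 0.12 in abi3-6, against 0.02, 0.06 and 0.04 in wild type. The part of these technical differences in the results below was not tested.

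The third abi3-6 array stood apart from the other 2 in a way that followed the genotype difference. Among the 359 probe sets (2.41%) at least 8-fold lower in abi3-6, this array was the lowest of the 3 mutant arrays for 251, and among the 695 (4.67%) at least 8-fold higher it was the highest for 427. It lay over 2 log2 units below both other mutant arrays for 20 probe sets and above both for 7. Of the 9 measured storage protein and oil body genes, it was the lowest mutant array for 8. For several of the genes and lists it moved, though not all, values without it stand beside the result.

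**Figure D1:**
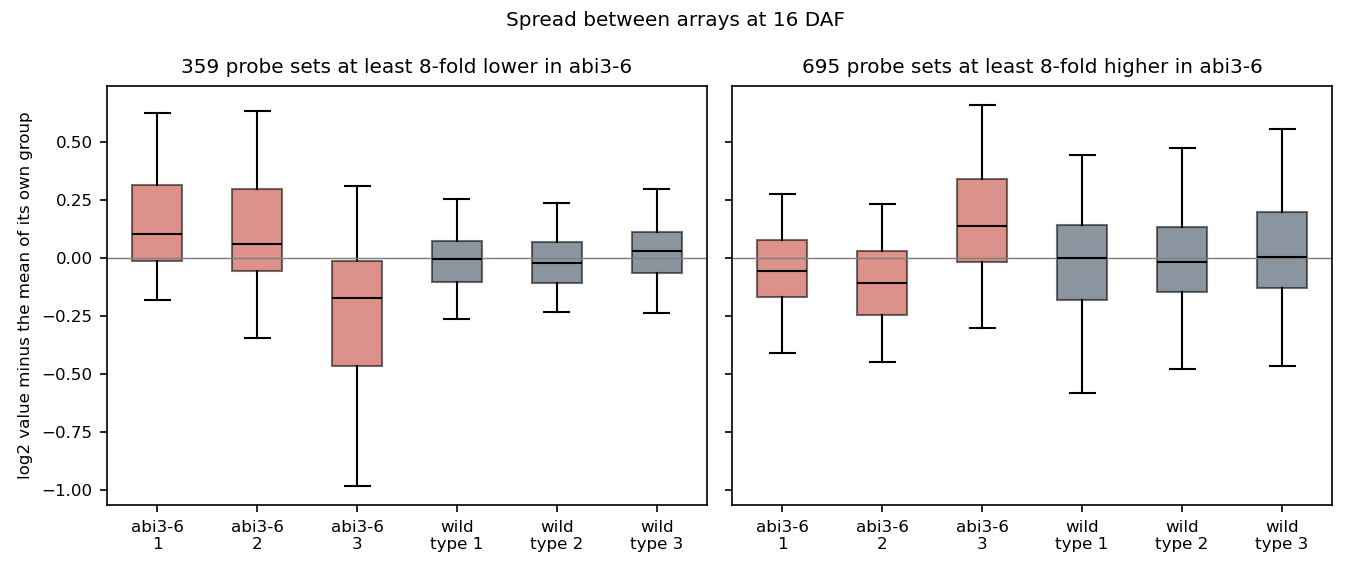
Deviation of each 16 DAF array from the mean of its own genotype (log2, vertical axis) for the probe sets at least 8-fold lower (left) or higher (right) in abi3-6. Boxes span the quartiles with the median as a line, and whiskers run from the 5th to the 95th percentile. The third abi3-6 array has a median of -0.17 on the left and 0.14 on the right, farther from 0 than any other array.

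At 16 DAF 10439 probe sets (70.2% of those tested) differed between abi3-6 and wild type at a Benjamini-Hochberg adjusted p under 0.05 in limma, 5288 (35.6%) higher and 5151 (34.6%) lower. They reached 2-fold in 3373 upward (22.7%) and 2556 downward (17.2%) cases, and 8-fold in 695 upward (4.67%) and 359 downward (2.41%) cases. The balance of directions depended on the scale. On the deposited scale 50.7% of calls were higher, after quantile normalization 45.8%, and after centring each array on its median 35.4%. Centring moved the median difference by -0.36. Larger differences depended on it too: after centring, 2491 probe sets were at least 2-fold higher and 3913 at least 2-fold lower. At 8-fold the counts became 520 higher and 460 lower. Among 8110 named loci tested, 2691 (33.2%) were higher and 2894 (35.7%) lower, with a median difference of -0.07. With so many transcripts called, a list of genes is described below mainly by the size of its differences. Counts of calls in a list are to be read against the 35.6% higher and 34.6% lower over all probe sets tested.

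The genes with the steepest falls were at very low levels in abi3-6 and near the top of the scale in wild type. AT5G45690 measured 2.44, 2.27 and 2.27 in abi3-6, against 13.61, 13.71 and 13.83 in wild type, a fall of at least 1504-fold against the dim limit (log2 difference -11.39 ± 0.14, SE, adjusted p = 7.18e-16). The oleosin AT2G25890 measured 2.04, 2.07 and 2.02 in abi3-6, against 13.08, 13.13 and 13.08 in wild type, at least 978-fold lower. All mutant arrays of both genes lay below the dim limit, so the fold is a lower bound. BGLU19, a beta-glucosidase, measured 3.58, 3.59 and 2.29 in abi3-6, against 14.03, 14.08 and 14.06 in wild type (-10.90 ± 0.28, adjusted p = 6.8e-13, or -10.47 without the third mutant array). AT3G21380 measured 4.27, 4.36 and 2.93 in abi3-6, against 12.35, 12.81 and 12.81 in wild type (-8.81 ± 0.29, or -8.34 without that array). For both genes the third mutant array was the lowest, and the genotypes stayed far apart. Among the 15 largest falls were also AT3G15280 (at least 551-fold), AT5G66430 (at least 289-fold), AT3G58450 (-9.51), AT2G19320 (-9.31), AT5G07330 (-8.74) and AT3G05260 (-8.73), for which the tables used give no name beyond the locus. The remaining ones were late embryogenesis abundant genes, described below. The adjusted p of the 15 ran from 7.18e-16 to 2.4e-10.

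**Figure D2:**
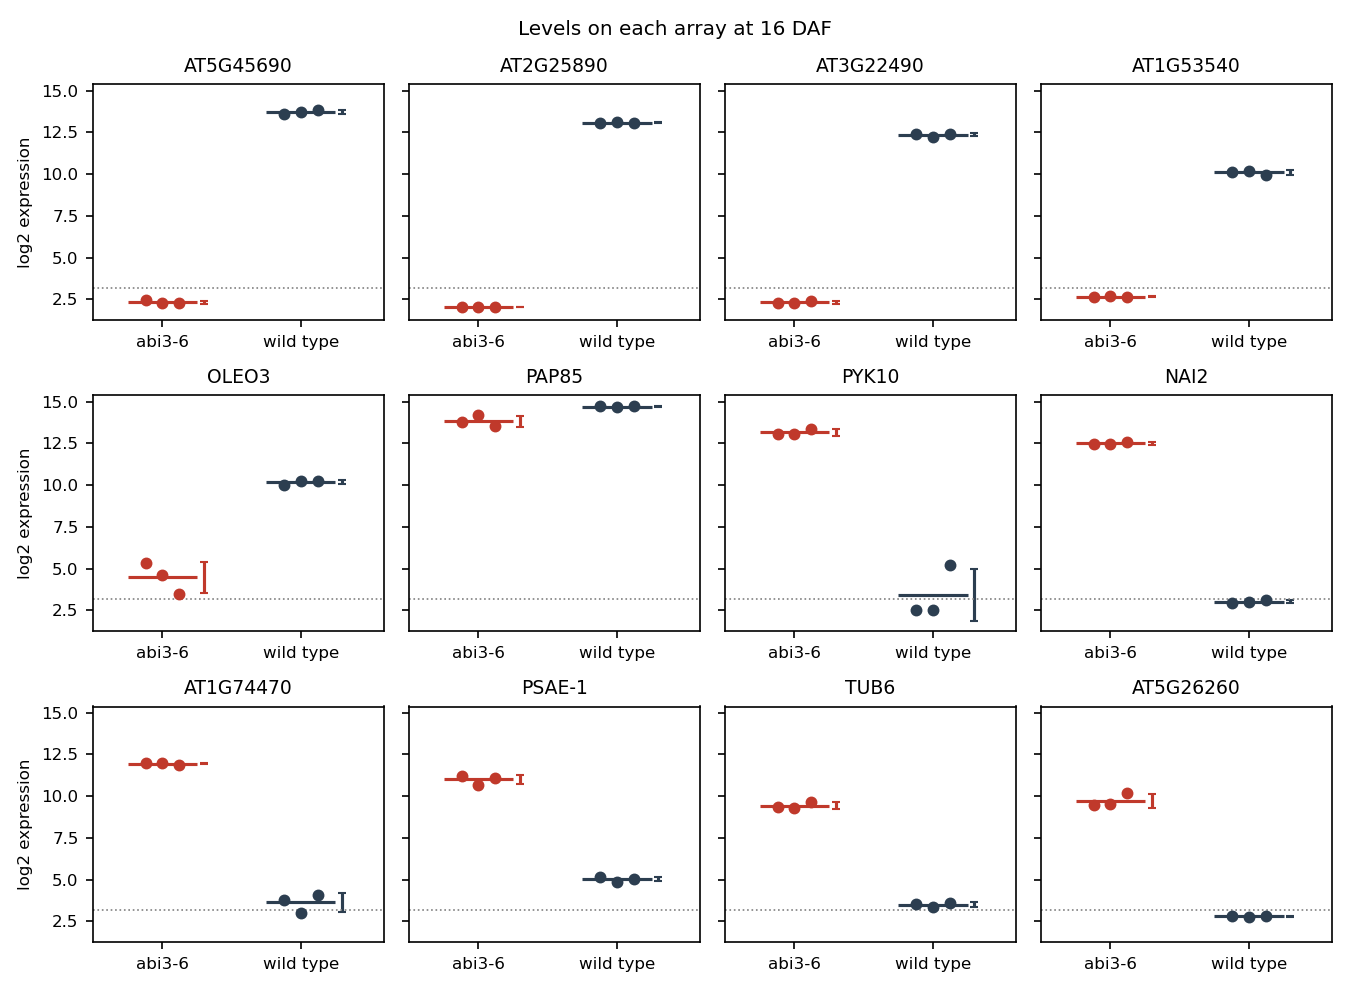
log2 expression (vertical axis) of 12 named genes on the 3 abi3-6 arrays (red, left) and the 3 wild-type arrays (dark, right) at 16 DAF. Lines are group means, bars SDs, and the dotted line is the dim limit of 3.16. The first 6 genes are lower in abi3-6, the last 6 higher, and PAP85 differs least, by -0.86.

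Storage reserve transcripts were lower in abi3-6, by very unequal amounts. All 5 measured seed storage protein genes fell (34.6% of all probe sets did), with a range from -5.08 to -0.86. Their median was -2.63, or -2.18 without the third mutant array. The cupin AT1G03890 measured 9.64, 9.27 and 7.17 in abi3-6, against 13.67, 13.86 and 13.79 in wild type (-5.08 ± 0.44, or -4.32 without the third mutant array). AT4G36700 measured 9.27, 9.21 and 7.12 in abi3-6, against 11.21, 11 and 11.27 in wild type (-2.63 ± 0.42, adjusted p = 6.94e-05, or -1.93 without that array). AT2G28490 had a mean of 10.47 in abi3-6, against 14.03 in wild type (-3.56 ± 0.22, or -3.25 without it). These 3 genes remained well above the dim limit in the mutant. PAP85, a vicilin-type globulin, changed least: it measured 13.79, 14.18 and 13.54 in abi3-6, against 14.72, 14.67 and 14.72 in wild type (-0.86 ± 0.15, adjusted p = 0.000203). At 12 DAF neither PAP85 nor AT4G36700 passed the test (adjusted p = 0.272 and 0.831), and for both the effect at 16 DAF differed from that at 12 DAF (adjusted p = 0.0015 and 0.00406). Only 5 of the 13 listed loci could be measured singly, and the main cruciferins and albumins were not among them.

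Oil body proteins, which coat the surface of seed oil droplets, fell further. Besides AT2G25890, AT3G18570 measured 4.92, 4.82 and 2.77 in abi3-6, against 11.81, 11.56 and 11.61 in wild type (-7.49 ± 0.41, or -6.79 without the third mutant array). OLEO3 measured 5.34, 4.60 and 3.50 in abi3-6, against 10.04, 10.27 and 10.25 in wild type (-5.71 ± 0.32, or -5.22 without that array). AT3G01570 stayed clearly detected in the mutant, at 10.53, 10.27 and 9.07, against 13.73, 13.84 and 13.89 in wild type (-3.86 ± 0.28, or -3.41 without it). The median of the 4 genes was -6.60, or -6.0 without the third mutant array, and the genotypes did not overlap for any of them (74.9% of all probe sets did not). All 4 effects but that of AT2G25890 were smaller by over 2 log2 units at 12 DAF, and each of the 4 differences between ages passed the test.

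Late embryogenesis abundant (LEA) proteins accumulate as seeds acquire desiccation tolerance. The list held 51 loci, of which 35 could be measured singly and 30 were tested: 21 fell, 7 rose and 2 did not pass (median -1.98). AT3G53040 measured 3.14, 2.63 and 3.26 in abi3-6, against 13.40, 13.36 and 13.28 in wild type (-10.34 ± 0.21). AT3G22490 measured 2.28, 2.26 and 2.43 in abi3-6, against 12.43, 12.25 and 12.40 in wild type, at least 586-fold lower. AT4G36600 (-9.43), AT1G72100 (at least 382-fold), M17 (-9.34), AT2G42560 (-8.30), AT3G15670 (-8.27), AT4G39130 (at least 78.9-fold), AtLEA4-1 (-7.05), AT2G18340 (-6.64) and the gene named LEA (-6.0) also fell at least 8-fold. M17 was uneven in the mutant, at 2.82, 3.25 and 4.52, and here the third array was the highest.

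Other LEA genes fell less or went the opposite way. LEA4-5 (-2.09), AT3G17520 (-1.81), M10 (-1.73) and LTI30, a cold-induced dehydrin (-0.71), fell moderately, and their mutant means stayed at 11.25 or above. AT1G54410 measured 12.38, 12.44 and 12.99 in abi3-6, against 7.17, 7.40 and 7.18 in wild type (5.35 ± 0.18, adjusted p = 1.14e-11). AT2G44060 (3.69), DI21 (3.63), COR47, a cold-regulated dehydrin (3.42), AT2G03850 (at least 5.75-fold), AT4G38410 (2.40) and AT3G02480 (1.06) rose as well. COR47 had been lower in the mutant at 12 DAF (-1.26). The list therefore held both some of the steepest falls and several clear rises at 16 DAF.

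Small heat shock proteins, chaperones that accumulate in maturing seeds without heat, fell for 8 of 9 tested genes (median -4.14). AT1G53540 measured 2.64, 2.68 and 2.67 in abi3-6, against 10.16, 10.22 and 9.96 in wild type, at least 124-fold lower. AT1G52560 measured 4.69, 4.42 and 4.20 in abi3-6, against 11.72, 11.71 and 11.66 in wild type (-7.26 ± 0.24). At 12 DAF the difference of AT1G52560 had been -0.74, and the change between ages passed the test (-6.52 ± 0.34, adjusted p = 1.56e-08). AT1G54050 fell by 6.11 and AT2G29500 by 2.97, while AT4G21870 rose by 1.33 from a wild-type level near the dim limit.

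Few transcription factors of the maturation programme could be measured: the list held 27 regulators, 3 of them measured singly. AGL67, a MADS-box factor, measured 9.22, 9.42 and 8.92 in abi3-6, against 11.25, 11.51 and 11.21 in wild type (-2.14 ± 0.16). EEL, a bZIP factor that binds LEA gene promoters, measured 9.13, 9.41 and 8.20 in abi3-6, against 10.51, 10.52 and 10.49 in wild type (-1.60 ± 0.23, or -1.24 without the third mutant array). BZIP53, another bZIP factor of storage gene control, fell by 0.85 ± 0.18, and all 3 stayed well detected in the mutant. For none of the 3 did the effect at 16 DAF pass a test of its difference from 12 DAF.

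Further bZIP and MADS-box genes moved in both directions, as did all probe sets (35.6% higher and 34.6% lower). bZIP44 measured 9.90, 9.85 and 9.75 in abi3-6, against 7.19, 6.56 and 6.72 in wild type (3.01 ± 0.18), and BZIP61 rose by 1.28. Of 10 tested AGAMOUS-like genes 5 fell and 2 rose (7 and 2 after centring). AGL87 rose by 4.0 ± 0.21, while AGL94 was at least 3.8-fold lower and AGL30 fell by 1.92. Of 12 RNA polymerase subunit genes 6 fell, 1 rose and 5 did not pass, and after centring 10 fell and 1 rose. NRPA1, the largest subunit of polymerase I, fell by 1.04 and NRPC1, that of polymerase III, by 0.76.

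Sugar transporters of the SWEET family were lower or did not pass. Of 9 tested genes of the list 7 fell and 2 did not pass (median -1.76, or -1.39 without the third mutant array). SWEET6 measured 3.07, 2.71 and 2.74 in abi3-6, against 10.13, 9.71 and 9.94 in wild type, at least 109-fold lower. SWEET11, a known seed coat and endosperm sucrose exporter, fell by 2.05 ± 0.16, and SWEET7 by 1.79 ± 0.21. SWEET1, which did not pass, had been higher in the mutant at 12 DAF (2.46).

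Autophagy and protein turnover genes showed smaller differences. Of 10 ATG8 and ATG3 genes, which build autophagosomes, 7 fell and 3 did not pass (median -1.01). ATG8H measured 8.16, 8.22 and 7.78 in abi3-6, against 11.10, 11 and 11.04 in wild type (-2.99 ± 0.15), and ATG8E (-1.47), APG8H (-1.45) and ATG8D (-1.32) followed. Of 22 ubiquitin protease and conjugating enzyme genes 10 fell and 4 rose (14 and 2 after centring), from -2.66 for UBC16 to 2.18 for UBC20. Of 23 vesicle traffic genes 8 were higher and 7 lower, near the shares over all probe sets (35.6% and 34.6%). After centring 4 were higher and 10 lower. Their median of 0.07 became -0.29 after centring, -0.05 after quantile normalization, and -0.03 or -0.05 without the first or the second mutant array.

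The opposite end of the comparison held genes of endoplasmic reticulum (ER) bodies, structures of seedlings and roots that store a defensive beta-glucosidase. PYK10, that beta-glucosidase, measured 13.06, 13.05 and 13.38 in abi3-6, against 2.55, 2.53 and 5.22 in wild type (9.73 ± 0.50, adjusted p = 8.86e-10). The third wild-type array was the one above the dim limit, and without it the difference was 10.63. NAI2, a protein needed for ER bodies to form, measured 12.47, 12.47 and 12.61 in abi3-6, against 2.97, 2.98 and 3.14 in wild type, at least 654-fold higher. The lectin genes JAL33 and JAL34, whose proteins join PYK10 aggregates, were at least 288-fold and at least 192-fold higher. JAL33 measured 11.17, 11.22 and 11.61 in abi3-6, against 2.84, 2.75 and 2.75 in wild type. JAL22 rose by 3.23 ± 0.29, or 2.76 without the third mutant array, and it had not differed at 12 DAF (adjusted p = 0.23).

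Some beta-glucosidases moved far, in both directions. Of 13 tested, 5 rose and 6 fell (4 and 8 after centring), where 35.6% of all probe sets were higher and 34.6% lower. Their median was -0.40, or -0.20 without the third mutant array. BGLU44 measured 12.11, 11.85 and 11.67 in abi3-6, against 7.06, 7.27 and 7.69 in wild type (4.54 ± 0.17), next to PYK10 at 9.73 and BGLU19 at -10.90.

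Transcripts of the chlorophyll pathway were high in abi3-6 and low in wild type. AT1G74470, which makes the phytyl side of chlorophyll, measured 11.99, 11.99 and 11.90 in abi3-6, against 3.78, 3.03 and 4.1 in wild type (8.33 ± 0.23, adjusted p = 1.48e-12). PORB, the light-dependent protochlorophyllide reductase, measured 9.93, 10.08 and 10.46 in abi3-6, against 2.64, 2.00 and 2.98 in wild type, at least 128-fold higher. CHLI2, a magnesium chelatase subunit, was at least 12.9-fold higher and CHLM rose by 3.97 ± 0.21. All 4 tested genes of the list rose (35.6% of all probe sets did), with a median of 5.85. NOL, a chlorophyll b reductase of chlorophyll breakdown, rose by 1.05 ± 0.20.

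The 8 measured photosystem and antenna genes were higher without exception in the deposited, centred and quantile-normalized values, with a median of 4.01 and a range from 1.01 for PSB27 to 5.98. PSAE-1, a photosystem I subunit, measured 11.21, 10.69 and 11.12 in abi3-6, against 5.14, 4.89 and 5.05 in wild type. PSBY (5.90) and PSBW (4.88), of photosystem II, and PSAN, of photosystem I (at least 26.8-fold), rose too. The antenna genes LHCB4.1, LHCB4.3 and LHCB4.2 rose by 3.14, 3.02 and 2.46. ATPC1, the gamma subunit of the plastid ATP synthase, was at least 138-fold higher.

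Carbon fixation and starch genes were higher alongside them. PRK, phosphoribulokinase, measured 8.02, 7.95 and 8.35 in abi3-6, against 2.56, 2.95 and 3.01 in wild type, at least 30.8-fold higher. SBPASE rose by 4.59 ± 0.26, the Rubisco activase RCA by 4.31 ± 0.24, and all 6 tested genes of the Calvin cycle and photorespiration list rose (median 4.45, 5 of 6 after centring). APL3, a large subunit of the enzyme that commits glucose to starch, measured 9.46, 8.94 and 9.65 in abi3-6, against 3.26, 3.10 and 3.21 in wild type (6.16 ± 0.19). All 5 starch genes rose, among them SBE2.2 (at least 13.9-fold) and DPE1 (2.89 ± 0.28). The plastid chaperonins Cpn60beta2 (2.36), Cpn60beta4 (at least 2.49-fold) and Cpn60beta3 (1.23) rose as well.

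Genes carried by the plastid genome itself differed less. Of 69 tested, 46 rose, 0 fell and 23 did not pass (median 0.95), and after centring 37 rose and 5 fell. rps4 measured 12.23, 12.17 and 12.30 in abi3-6, against 9.94, 9.61 and 10.01 in wild type (2.38 ± 0.32). Mitochondrial genes went the other way, with 8 of 14 lower, 0 higher and a median of -0.41. Without the third mutant array 5 of them fell and 9 did not pass. nad2 measured 3.57, 3.32 and 3.64 in abi3-6, against 5.51, 5.37 and 4.67 in wild type (-1.67 ± 0.21). The nuclear genes of succinate dehydrogenase SDH2-1 and SDH2-2 rose by 1.52 and 1.39.

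Oil metabolism was measured by few genes. AT1G24360 and AT2G34590, of the fatty acid synthesis list, rose by 1.85 and 1.63. For oil breakdown, SDP1, the main seed oil lipase, fell by 0.67 ± 0.19 at 16 DAF but had been higher in the mutant at 12 DAF (0.86), and the difference between ages passed (adjusted p = 0.000508). ICL, the glyoxylate cycle enzyme isocitrate lyase, measured 14.73, 14.95 and 14.79 in abi3-6, against 13.74, 13.92 and 13.98 in wild type (0.94 ± 0.14). SDP1-LIKE rose by 1.10 ± 0.23. AIM1, of peroxisomal fatty acid oxidation, fell by 0.51 ± 0.16, a call lost without the third wild-type array (adjusted p = 0.071). The median of these 4 genes was 0.22, and -0.14 after centring.

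Most tubulin genes, which build the microtubules of dividing and growing cells, were higher in abi3-6. TUB6 measured 9.34, 9.32 and 9.67 in abi3-6, against 3.56, 3.35 and 3.63 in wild type (5.93 ± 0.15). TUA6 rose by 5.05 ± 0.30, and TUB5 measured 6.76, 6.91 and 7.93 in abi3-6, against 2.57, 2.51 and 2.67 in wild type, at least 16.4-fold higher. Of 7 tubulins tested 6 rose (median 2.85, or 2.31 without the third mutant array), while TUA1 had a difference of -0.24 and did not pass. Of 12 actin and microtubule binding genes 8 rose, led by the LIM protein WLIM1 (5.42) and SP1L3 (4.95). NET3A, an actin-binding protein, fell by 3.43 ± 0.27, or by 3.09 without that array.

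The expansin EXPA9 measured 7.87, 7.95 and 8.30 in abi3-6, against 2.81, 2.52 and 2.79 in wild type, at least 29.4-fold higher. At 12 DAF EXPA9 had been lower in the mutant (-0.83), and the change between ages was 6.16 (adjusted p = 4.95e-09). XTH19, a xyloglucan-modifying enzyme, measured 8.97, 9.13 and 10.13 in abi3-6, against 4.11, 4.06 and 4.17 in wild type (5.30 ± 0.26, or 4.94 without the third mutant array). Of the 30 expansin and xyloglucan enzyme genes with a probe set 11 were tested: 7 rose, 2 fell, among them EXLA1 (-1.84 ± 0.30), and 2 did not pass. The median of those tested was 0.82, and -0.05 when dim ones were kept in. PRL, a DNA replication licensing factor, was at least 4.20-fold higher, whereas the mitotic kinase AUR2 fell by 0.48 ± 0.14.

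Serine carboxypeptidase-like genes, a family of secreted hydrolases and acyltransferases, rose for 11 of 15 tested (median 2.41). The list had 29 genes with a probe set, whose median over all of them, dim ones included, was -0.04. scpl20 measured 8.00, 8.03 and 8.82 in abi3-6, against 2.77, 1.89 and 1.90 in wild type, at least 34.8-fold higher, and it had not differed at 12 DAF (-0.06, adjusted p = 0.893). scpl29 (5.40) and scpl35 (4.97) rose, and scpl31 fell by 2.48. CP1, a cysteine protease, measured 12.17, 12.49 and 13.00 in abi3-6, against 3.22, 4.97 and 4.90 in wild type (8.19 ± 0.40). Most of its rise was seen at 16 DAF, with a difference of 6.53 ± 0.56 between ages.

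Signalling genes moved in both directions, where 35.6% of all probe sets were higher and 34.6% lower. RALFL34, a secreted peptide of the RALF family, measured 9.85, 9.75 and 9.98 in abi3-6, against 2.90, 4.40 and 3.42 in wild type (6.29 ± 0.27). The calmodulin-like genes CML43 (at least 6.47-fold) and CML38 (2.52) rose. Among tetraspanins, TET4 measured 6.16, 6.55 and 5.07 in abi3-6, against 10.82, 10.88 and 11 in wild type (-4.97 ± 0.30, or -4.54 without the third mutant array), while TET3 rose by 3.58 and TET7 by 2.99. The auxin response repressors IAA34 (at least 8.43-fold) and IAA30 (-2.62) were lower and IAA18 was higher (0.99). Of 12 IQ-domain genes 3 rose and 4 fell, with a median of 0.06 that became -0.30 after centring and -0.10 after quantile normalization, and of 12 TRICHOME BIREFRINGENCE-LIKE wall acetylation genes 4 rose and 2 fell (3 and 5 after centring), with a median of -0.05. The gibberellin receptors GID1A and GID1C fell by 1.66 ± 0.17 and 1.49 ± 0.18, and neither had passed at 12 DAF.

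Defence and detoxification genes also moved in both directions, as did all probe sets (35.6% higher and 34.6% lower). GSTU20, a glutathione transferase, measured 9.49, 9.18 and 8.96 in abi3-6, against 2.67, 2.29 and 2.18 in wild type, at least 66.2-fold higher. ALDH11A3 (5.49) and ALDH3F1 (3.76) led 7 rises among 8 aldehyde dehydrogenases. UGT72E1, a phenylpropanoid glucosyltransferase, measured 3.66, 4.01 and 3.58 in abi3-6, against 9.59, 9.68 and 9.39 in wild type (-5.80 ± 0.23), while UGT76E2 rose by 4.37 and UGT71B1 by 4.11. Of 32 UDP-glycosyltransferases 15 fell and 12 rose. The defensins PDF1.2b (-3.88) and PDF1.4 (-3.07) fell and LCR69 rose by 3.47. Of 9 cytochrome P450 genes 4 rose and 3 fell (3 and 5 after centring), with a median of -0.17. Of 10 thioredoxins and glutaredoxins (median 0.12, and -0.24 after centring) 5 rose and 3 fell (4 and 5 after centring), GRXC1 (-1.93) and the plastid thioredoxin TY1 (-2.06) among the falls. The third wild-type array of PDF1.4 lay at 4.80, against 6.49 and 6.72 on the other wild-type arrays.

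**Figure D3:**
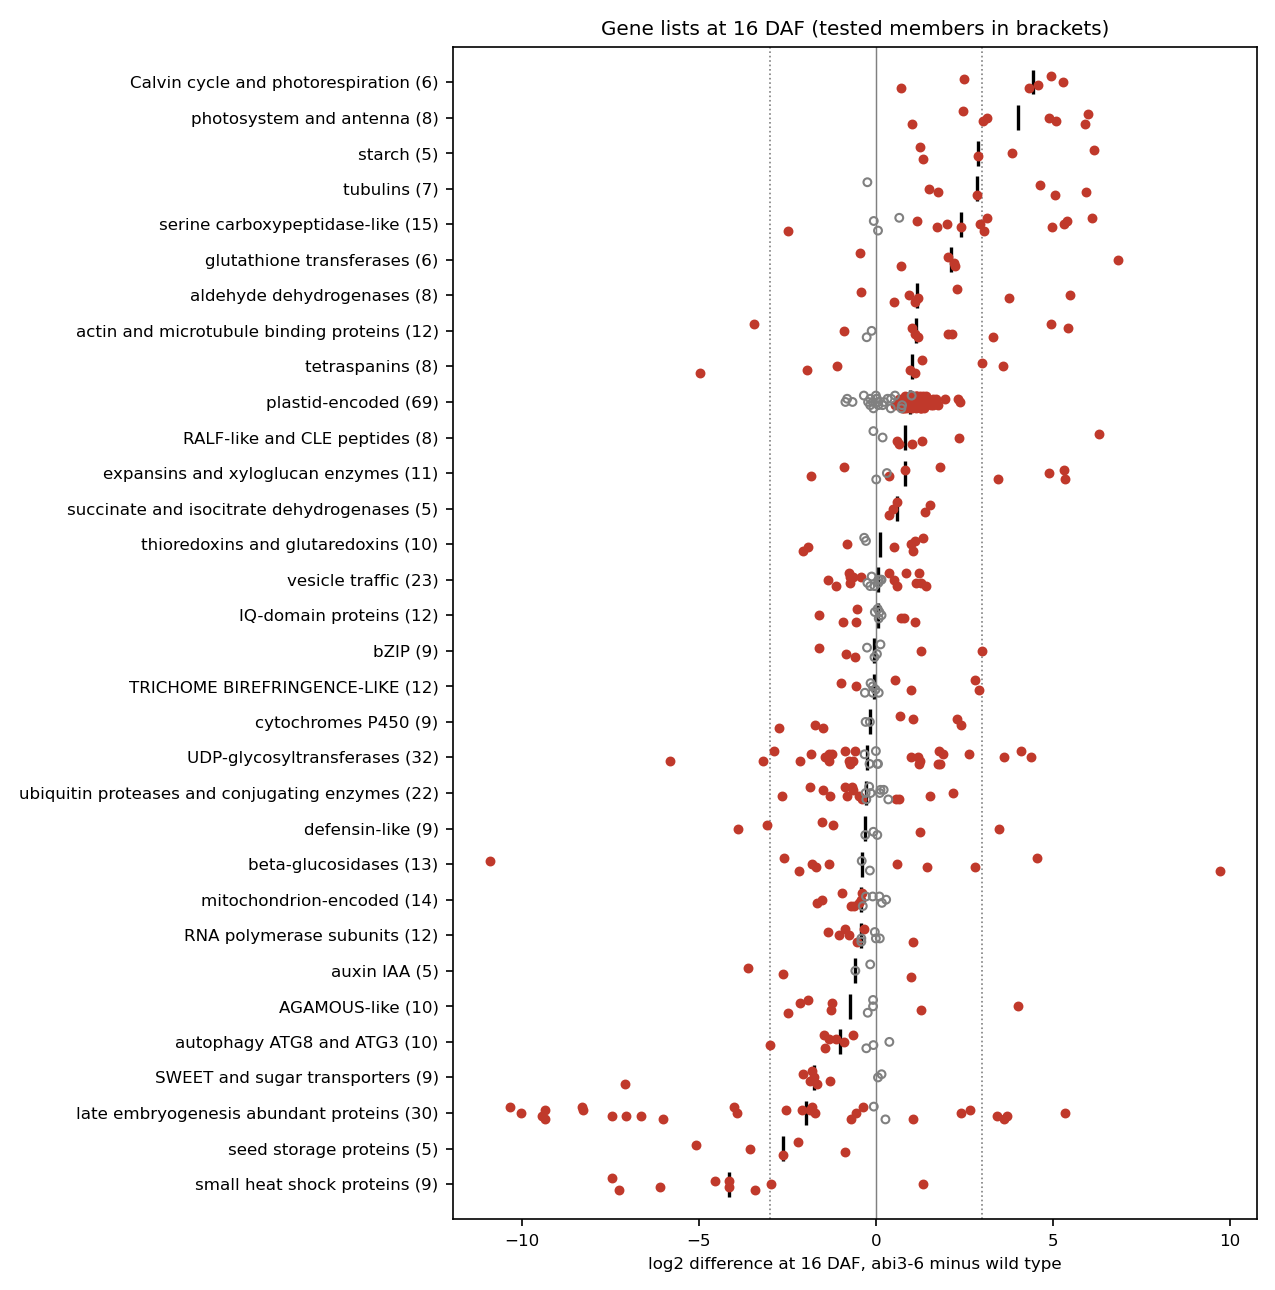
log2 difference at 16 DAF (abi3-6 minus wild type, horizontal axis) of every tested member of the lists with at least 5 tested members. Filled points passed the test, hollow points did not, black bars are list medians and dotted lines mark 8-fold. Medians run from 4.45 for the Calvin cycle and photorespiration list to -4.14 for small heat shock proteins.

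Tissue markers were sparse. Of the endosperm markers, LCR67 measured 12.97, 13.07 and 12.69 in abi3-6, against 14.46, 14.31 and 14.51 in wild type (-1.52 ± 0.23), and AT4G04460 fell by 2.01 ± 0.18. Of the seed coat markers, ARA12, a mucilage-related subtilase, rose by 1.45 ± 0.15, and BAN lay under the dim limit on all 6 arrays. ALC, a factor of the silique wall, measured 4.37, 3.62 and 4.75 in abi3-6, against 3.30, 2.72 and 2.70 in wild type (1.34 ± 0.29). In whole seeds, fewer cells of a type and less RNA per cell cannot be told apart, and the part of tissue proportions in the differences above was not tested.

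The other large rises were those of ZW9 (8.20), AT4G30650 (at least 155-fold), CCL (7.18), AT1G47400 (6.98), AT1G73120 (6.94), AT5G26260 (at least 95.6-fold) and AT1G67750 (at least 51.1-fold). AT1G67750 measured 8.5, 8.35 and 9.65 in abi3-6, against 2.00, 1.97 and 1.99 in wild type. AT5G26260 measured 9.46, 9.54 and 10.21 in abi3-6, against 2.85, 2.76 and 2.81 in wild type. Both genes were well separated between genotypes, and the third mutant array was the highest for each. The adjusted p of the 15 largest rises ran from 1.07e-14 to 2.29e-09.

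More probe sets differed between the genotypes at 16 DAF than at 12 DAF. At 12 DAF 7560 probe sets (50.8%) differed, against 10439 at 16 DAF, 4030 (27.1%) higher and 3530 (23.7%) lower. Of the 359 probe sets at least 8-fold lower at 16 DAF, 311 were also lower at 12 DAF, 4 were higher and 44 did not pass, with a median of -4.24 at 16 DAF and -2.17 at 12 DAF. Of the 695 at least 8-fold higher, 616 were also higher at 12 DAF, 11 were lower and 68 did not pass, with a median of 3.91 at 16 DAF and 1.95 at 12 DAF. These probe sets were chosen for their size at 16 DAF, so smaller medians at 12 DAF are built into the choice. The effect itself differed between ages for 5971 probe sets (40.1%). For 195 the call was lower at 16 DAF and higher at 12 DAF, and for 157 it was the reverse. The names of the 16 DAF arrays in the submitters' labels share a mark that those of the 12 DAF arrays lack, and the wild-type samples at 12 DAF are numbered in a style of their own. Any handling that went with these names cannot be told apart from age, nor from genotype at 12 DAF, while both genotypes at 16 DAF share 1 style.

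Single genes showed how the ages differed. At 16 DAF M17 averaged 3.53 in abi3-6, against 12.87 in wild type. Its means at 12 DAF were 2.40 in abi3-6 and 6.42 in wild type. AT3G22490 averaged below the dim limit in abi3-6 at both ages, while its wild-type mean was 12.36 at 16 DAF and 6.51 at 12 DAF. JAL33 averaged 11.33 in abi3-6 at 16 DAF and 5.99 at 12 DAF, and its wild-type mean lay below the limit at both ages. AT5G26260 did not differ in call at 12 DAF (adjusted p = 0.862) and was among the largest rises at 16 DAF. AT1G47400 went the other way, with a smaller rise at 16 DAF than at 12 DAF (-1.66 ± 0.29, adjusted p = 0.000461). Of the 15 largest falls and 15 largest rises, the difference between ages passed for 29, all but AT5G07330 (adjusted p = 0.356).

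**Figure D4:**
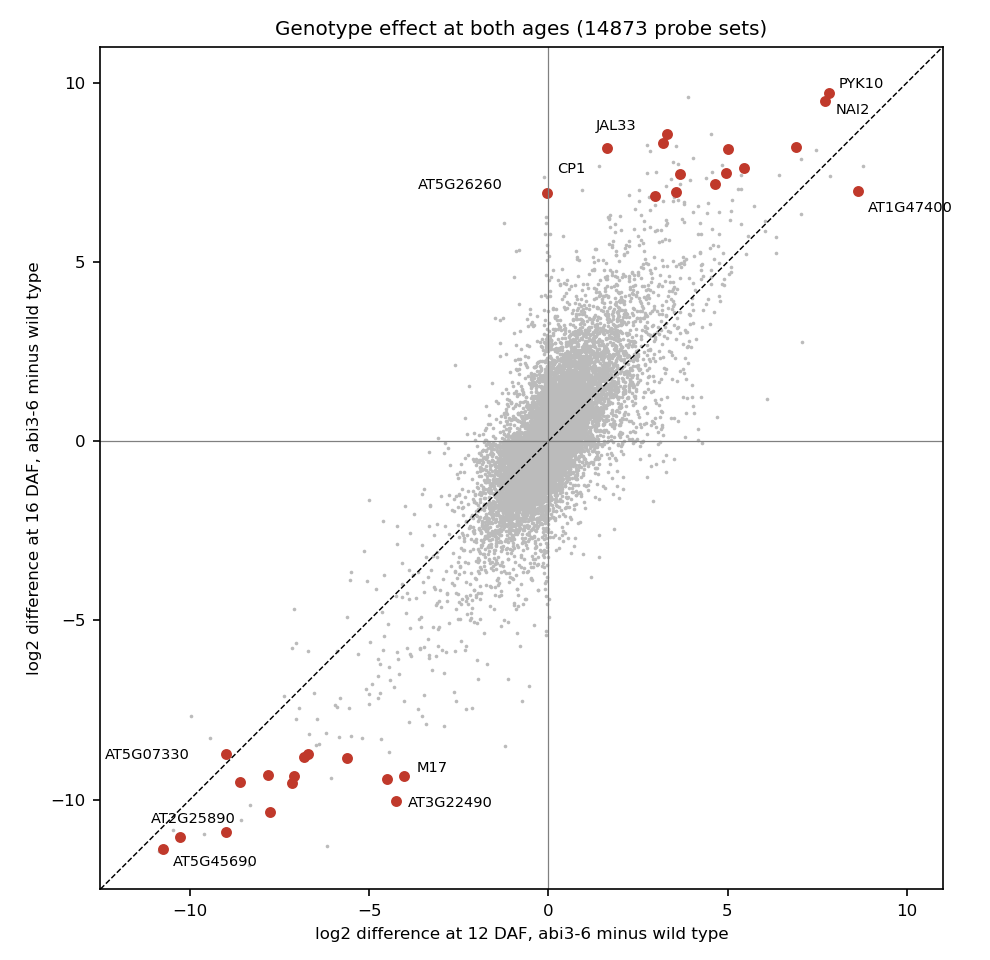
log2 difference, abi3-6 minus wild type, at 16 DAF (vertical axis) against 12 DAF (horizontal axis) for the 14873 probe sets tested (grey). Red marks the 15 largest falls and 15 largest rises at 16 DAF among probe sets paired with a single gene. The dashed line marks equal effects, and most red points lie farther from 0 at 16 DAF.

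Genes that lie next to each other in the genome were also compared. Among 2619 adjacent pairs of tested loci, the log2 differences had a Pearson correlation of 0.0861, given as a description across gene pairs. Both members changed at least 8-fold in 20 pairs, 8 both higher, 5 both lower and 7 in opposite directions. Of single named loci 6.13% changed that much, a share that cannot be set directly against a count of pairs. Whether neighbours shared large changes more or less often than unrelated loci was not tested. JAL33 and JAL34 were one pair that rose together. AGL87 (4.0) and its neighbour AT1G22600 (-6.77) moved apart, as did APS4 (3.71) and AT5G43770 (-8.16).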

How the data were processed

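The data were log2 expression values that the authors deposited as 1 table for 12 one-colour Affymetrix arrays. Per the submitters' processing notes, GCOS 1.3 and GCRMA 2.0.0 were used, with settings not given in the sources used here. A log2 scale was inferred from the values, since no label states it. GCRMA models background from probe sequence, which can stretch or compress the differences of dim probe sets, and no raw intensities were used here.

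Of 22746 probe sets, after 64 controls were set aside, 13513 had 1 gene in the platform annotation, 503 several and 8730 none. Of those with 1 gene, 13436 matched the TAIR10.1 gene table, used for names and gene order only, and covered 13286 loci. Where a locus had several, the one brightest on average was taken.

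The dim limit was the 40th percentile of all values (3.16), reached on at least 3 arrays. The limma package (3.58.1, R 4.3.3) fitted group means to the 12 arrays (lmFit, eBayes, 8 residual and 5.41 prior degrees of freedom), with two-sided tests and Benjamini-Hochberg adjustment over 14873 probe sets. A fold given as "at least" sets the brighter group's mean against the dim limit where all 3 arrays of the other group lay under it. A simulation gave all 12 arrays the wild-type 16 DAF means with normal noise of the measured spread. It then changed 101 probe sets by 2-fold and 99 by 8-fold in the abi3-6 16 DAF arrays. Of these, 73.3% of 2-fold and 100.0% of 8-fold changes were recovered, with 6 false calls over 14873 probe sets. Far fewer probe sets changed there than were called in the data, so these shares do not carry over to the real comparison. Plots used matplotlib 3.10.9, and tables numpy 2.4.6 and pandas 2.3.3 under Python 3.11.15.

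Named genes were the 15 with the largest fall and the 15 with the largest rise, taken from calls with 1 gene and no overlap of the genotypes, and up to 4 members per list that met the same conditions. For short lists of regulators and markers all members were taken. Further list members were named after their values were seen, as were the neighbouring genes. The members and lists were chosen with earlier results of these data known. Of 48 lists, the abscisic acid and raffinose lists had 0 members with a probe set of their own. Lists built on gene symbols hold only genes with such a symbol. Alternatives were other filters and scalings, array weights, a mean-variance trend, a replicate block, the 16 DAF arrays alone and leaving out each array.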

Additional observations from a re-analysis of the deposited data

Results flagged for a closer look

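The effect of genotype differed between ages (limma, 16 DAF effect minus 12 DAF effect, adjusted p under 0.05) for 29 of 30 genes. These were the genes with the largest falls and rises at 16 DAF among probe sets with 1 gene. Fitted falls were deeper at 16 DAF for AT3G22490 (-5.77), M17 (-5.33), AT4G36600 (-4.94), AT5G66430 (-3.22), AT3G53040 (-2.55), AT3G15280 (-2.39), AT1G72100 (-2.25), AT3G05260 (-2.02), AT3G21380 (-1.99), BGLU19 (-1.90), AT2G19320 (-1.49), and AT3G58450 (-0.90). AT2G25890 (-0.77) and AT5G45690 (-0.63) also passed, but their abi3-6 means lay under the dim limit at both ages (2.04 and 2.23 for AT2G25890, 2.33 and 2.83 for AT5G45690), so no deeper fall can be read from them. For other genes with 1 genotype under the limit, the size of the change has the same limit. Fitted rises were larger at 16 DAF for AT5G26260 (6.97), CP1 (6.53), JAL33 (5.26), AT1G74470 (5.14), AT1G67750 (3.88), AT4G30650 (3.8), AT1G73120 (3.37), JAL34 (3.14), ATPC1 (2.54), CCL (2.53), PORB (2.16), PYK10 (1.92), NAI2 (1.76) and ZW9 (1.27). The rise of AT1G47400 was smaller at 16 DAF (-1.66). Since these genes were chosen for their size at 16 DAF, a larger effect at that age is in part built into the choice.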

How the results depend on the processing

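Counts of probe sets at 16 DAF stayed within 1.5 times of the reported ones under each alternative, with 2 exceptions. With no filter on dim probe sets 9078 were lower instead of 5151. The 7873 dim probe sets added had a median difference of -0.10 and held 3916 of the lower calls but only 21 at least 2-fold lower. After centring arrays on the median, 3913 were at least 2-fold lower instead of 2556. Leaving out 1 array at a time gave 5047 to 5129 higher, 4796 to 4875 lower, 646 to 715 at least 8-fold higher, 337 to 380 at least 8-fold lower, and 5280 to 5721 with a different effect at the 2 ages. Deviations of same-numbered abi3-6 and wild-type arrays correlated at 0.0787, 0.0407 and 0.0114, against -0.0989 to 0.0698 for other pairs of arrays. These values cannot settle whether replicate numbers paired the samples, since deviations within a group are not independent. With the replicate block 5296 were higher and 5160 lower. Over 2720 values of the 182 named genes, 2695 kept direction and call, 24 of 8 genes lost the call and 1 turned: BAN, not called, went to -0.21 after centring. Of 736 list medians 23 changed sign, over 13 lists. With no filter the medians of serine carboxypeptidase-like genes (-0.04), expansins (-0.05), RALF-like peptides (-0.07), tetraspanins (-0.06) and glutathione transferases (-0.09) fell below 0. After centring, those of fatty acid breakdown (-0.14), IQ-domain proteins (-0.30) and thioredoxins (-0.24) did so too. The cause of these changes was not tested. Promoter motifs and their alternative window were not run. The 3 arrays per genotype, whole-seed RNA and 8730 unnamed probe sets limit what can be read from single genes and lists.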

Other observations

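Among 6342 tested probe sets with no gene in the annotation used, 395 were at least 8-fold higher and 150 at least 8-fold lower in abi3-6, against 292 and 206 of the 8187 with 1 gene.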
